A study of Homo sapiens with 12 samples.

Results

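The genes described here are 10 mRNA decay factors for AU-rich transcripts, proteins that bind AU-rich or neighbouring elements in the 3′ untranslated region (3′UTR) of an mRNA and slow or speed its decay, or cut it. They are ZFP36, ZFP36L1, ZFP36L2, ZC3H12A, ZC3H12C, RC3H1, KHSRP, HNRNPD, TIA1 and TIAL1, chosen by gene symbol. All 10 were among the 28901 named genes of the count table, and each of the 10 passed the filter of at least 10 counts in total in every comparison. RNA-seq was performed on ASC52telo hTERT cells, an immortalized line of human adipose-derived mesenchymal stem cells, wild type by its label, that had been differentiated into adipocytes until day 14. The cells carried either a scramble shRNA (scramble control) or an shRNA against linc-ADAIN, a human adipose long intergenic non-coding RNA (linc-ADAIN KD). Both shRNAs came in a lentiviral vector that also encodes the fluorescent protein ZsGreen, and cells were sorted for it. Each shRNA was sequenced without LPS and after 4 h of LPS at 100 ng/mL, which gave 4 groups of 3 libraries and 12 libraries in all. All 4 groups shared the same induction medium, with insulin, dexamethasone, isobutylmethylxanthine and rosiglitazone, and then a maintenance medium that still held insulin and dexamethasone. Everything here comes from 1 cell line, and the 3 libraries of a group are a triplicate of 1 experiment, so p-values measure the spread within that experiment.

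AU-rich elements are stretches of A and U, often built from overlapping copies of the pentamer AUUUA, in the 3′UTRs of many short-lived mRNAs for cytokines, chemokines and growth regulators. ZFP36 (tristetraprolin) and its relatives ZFP36L1 and ZFP36L2 are zinc finger proteins that bind such elements and recruit the CCR4-NOT deadenylase, after which the mRNA is decapped and degraded from its 5′ end or taken apart by the exosome. The p38-MK2 kinases phosphorylate ZFP36 and restrain it. ZC3H12A (Regnase-1) is an endonuclease that cuts mRNAs of inflammatory genes such as IL6 at stem-loops, ZC3H12C belongs to the same Regnase family, and RC3H1 (Roquin-1) binds similar stem-loops. KHSRP and HNRNPD (AUF1) are AU-rich element binding proteins with a decay function, and TIA1 and TIAL1 (TIAR) are mainly known for holding AU-rich mRNAs back from translation. In adipocytes, as in macrophages, LPS acts through Toll-like receptor 4 and raises many mRNAs that this machinery handles.

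Counts on named genes ran from 28.4 to 53.8 M (1 M is 1e6) per library, and the members had 654 to 18881 counts per library. Levels are given as CPM, counts per 1e6 after TMM scaling over the 12 libraries. The correlation of log2 CPM between libraries of a group was 0.977 to 0.990. The lincRNA targeted by the shRNA was not analysed here, so the knockdown itself was not checked, and KD is the label of those 6 libraries. The 8 adipocyte markers (ADIPOQ, PLIN1, PLIN4, FABP4, LPL, CIDEC, PPARG and CEBPA) summed to 3140 to 4350 CPM in scramble control, 3650 to 4210 CPM in scramble with LPS, 628 to 1830 CPM in KD and 510 to 1180 CPM in KD with LPS. LPL stood at 0 to 2.36 CPM in every group, which goes against the adipocyte label for that marker. The 6 stromal markers summed to 5020 to 6020 CPM in scramble and 6330 to 7200 CPM in KD without LPS, and to 4760 to 5370 CPM in scramble and 7370 to 8200 CPM in KD with LPS. DCN, at 2130 to 3070 CPM in scramble and 4500 to 5330 CPM in KD without LPS, made up much of that sum. Gene by gene, 2 stromal markers were called higher in KD (PDGFRA and DCN without LPS, NT5E and DCN with LPS) and 3 lower at each state (PDGFRB, THY1 and ENG), with a list median log2 fold change of -0.40 without and -0.44 with LPS. The 7 markers of leukocytes, endothelium and epithelium summed to 67.4 to 78.4 CPM in the 2 scramble groups and to 29.7 to 44.7 CPM in the 2 KD groups, mostly from CD68, and CDH5, EPCAM and PTPRC, which define endothelium, epithelium and leukocytes, were at 0 to 0.316 CPM. The endothelial genes PECAM1 and VWF were not as low, with means of 7.44 and 9.66 CPM in scramble, 6.68 and 2.21 CPM in KD, 6.03 and 4.70 CPM in scramble with LPS and 3.67 and 0.698 CPM in KD with LPS. CD68 averaged 53.6 CPM in scramble, 31.1 in KD, 60.1 in scramble with LPS and 25.4 in KD with LPS. Of the adipocyte markers, 6 of 8 were lower in KD without LPS and 7 of 8 with LPS. The part of these marker differences in the KD differences below was not tested. In such bulk samples, fewer cells of a type and less RNA per cell cannot be told apart.

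Several members carry AU-rich motifs in their own mRNA. Matches were counted in the 3′UTR of each gene's canonical transcript (GENCODE release 44, GRCh38), in DNA letters of the mRNA strand, with overlapping copies each counted. The heptamer TATTTAT was found in 7 of 10 members, against 34.9% of 15489 tested genes with a protein-coding canonical transcript. The longer nonamer TTATTTATT, which contains the heptamer, was found in 4 of 10 members (ZFP36, ZFP36L1, ZFP36L2 and ZC3H12C) and in 9.25% of the genes. The pentamer ATTTA, contained in both, was found in 9 of 10 members and 71.9% of the genes. Longer 3′UTRs have more room for a match, and these shares were not matched on length. The median over all genes was 1281 bases, and all members but ZFP36 (708) and ZC3H12A (766) had longer 3′UTRs. The 3 genes of the ZFP36 family held 3 heptamers and 1 nonamer each, and ZC3H12C held 27 pentamers, 5 heptamers and 1 nonamer in a 3′UTR of 6104 bases. ZC3H12A held no pentamer in its 766 bases, and KHSRP and HNRNPD held no heptamer. The sites below are 30-base windows of the 3′UTRs with the most heptamers. They are shown for the 4 members with a nonamer and for IL6 and CXCL8, 2 messages that the members are known to act on. Not every member reads these letters, as the Regnase ZC3H12A cuts at stem-loops. Capitals mark the heptamers.
ZFP36: gggcccttTATTTATgacgacttTATTTAT
ZFP36L1: atttaacttatcaaaacgTATTTATtgcca
ZFP36L2: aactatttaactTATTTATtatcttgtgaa
ZC3H12C: tgctataatcatTATTTATagaaacaaagt
IL6: tttttaaagaaaTATTTATattgTATTTAT
CXCL8: taaccTATTTATTATTTATgTATTTATtta
In GRCh38 these windows lie at chr19:39409184-39409213 (plus strand) for ZFP36, chr14:68788342-68788371 (minus strand) for ZFP36L1, chr2:43223448-43223477 (minus strand) for ZFP36L2, chr11:110166245-110166274 (plus strand) for ZC3H12C, chr7:22731919-22731948 (plus strand) for IL6 and chr4:73743108-73743137 (plus strand) for CXCL8. The ZFP36 and IL6 windows hold 2 heptamers each and the CXCL8 window 3, whereas those of ZFP36L1, ZFP36L2 and ZC3H12C hold 1 each. A match is a description of the letters, and binding was not measured.

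The promoters of 9 of the 10 members, with 12 start sites, were in RefSeq's table of GRCh38 promoters, and ZFP36L2 was not listed. The 250 bases before the start are printed for ZC3H12A and ZC3H12C, which were higher in all 4 pairwise comparisons below, and for ZFP36, which was not. The letters searched on both strands were the GC box GGGCGG, the TATA box as TATAAA, the cyclic AMP element TGACGTCA, the AP-1 site as TGANTCA, the kappaB motif bound by NF-kappaB and the CArG box bound by serum response factor. Capitals mark matches, on either strand.
ZC3H12A: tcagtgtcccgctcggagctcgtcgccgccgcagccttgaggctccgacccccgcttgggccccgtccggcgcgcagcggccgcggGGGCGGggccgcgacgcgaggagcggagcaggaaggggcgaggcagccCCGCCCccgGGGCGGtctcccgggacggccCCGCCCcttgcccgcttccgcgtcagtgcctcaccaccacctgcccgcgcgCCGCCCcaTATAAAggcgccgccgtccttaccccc
ZC3H12C: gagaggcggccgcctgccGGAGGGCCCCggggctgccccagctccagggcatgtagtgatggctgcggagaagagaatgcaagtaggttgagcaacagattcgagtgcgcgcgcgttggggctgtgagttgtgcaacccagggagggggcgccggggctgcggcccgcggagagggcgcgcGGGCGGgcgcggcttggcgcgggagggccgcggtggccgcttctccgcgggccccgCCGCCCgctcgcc
ZFP36: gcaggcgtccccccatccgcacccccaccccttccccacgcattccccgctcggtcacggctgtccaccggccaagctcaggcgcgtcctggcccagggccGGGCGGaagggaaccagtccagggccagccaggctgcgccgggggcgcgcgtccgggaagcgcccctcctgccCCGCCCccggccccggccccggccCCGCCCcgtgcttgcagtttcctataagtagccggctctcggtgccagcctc
These windows are chr1:37474330-37474579 (plus strand) for ZC3H12A, chr11:110093142-110093391 (plus strand) for ZC3H12C and chr19:39406597-39406846 (plus strand) for ZFP36. ZC3H12A had TATAAA starting 27 bases before its start, a motif in 10.7% of 35116 promoters of this length, and 5 GC boxes. The same letters matched further upstream, 126 to 162 bases before the start, in HNRNPD, TIA1 and RC3H1. ZC3H12C had a kappaB match 232 bases before the start and 2 GC boxes, and ZFP36 had 3 GC boxes. The GC box was in 42.6% and the kappaB motif in 9.96% of all promoters. Among the other members' windows the kappaB motif had no match, and TGACGTCA, in 1.65% of promoters, was found at 52 bases before 1 of the ZFP36L1 starts. No match for TGANTCA (6.57% of promoters) or the CArG box (1.16%) was found in the members' windows.

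ZC3H12A had the largest difference of the 10 genes in 3 of the 4 pairwise comparisons. Without LPS, ZC3H12A, ZC3H12C, ZFP36L1 and TIA1 were higher in KD than in scramble and HNRNPD was lower, so that 4 members were called higher, beside 12.1% of the 16217 genes tested, and 1 lower, beside 15.1%. A call is an adjusted p under 0.05 from edgeR's quasi-likelihood F test over all genes. With LPS, ZC3H12C and ZC3H12A were higher in KD and ZFP36 was lower, 2 members called higher beside 12.7% of 15981 genes and 1 lower beside 14.2%. In scramble control, LPS raised ZC3H12A, ZFP36L1 and ZC3H12C and lowered ZFP36, ZFP36L2 and HNRNPD, which makes 3 higher beside 5.9% of 15920 genes and 3 lower beside 8.38%. In KD, LPS raised ZC3H12A, ZC3H12C and RC3H1 and lowered ZFP36, ZFP36L2 and HNRNPD, again 3 higher beside 5.32% of 16169 genes and 3 lower beside 6.03%. The LPS response itself differed between the shRNAs for 2 members, ZC3H12C, called higher beside 0.943% of 17173 genes, and ZFP36L1, called lower beside 0.332%. Past 2-fold as well, 1 member (ZC3H12A) was called in KD without LPS, beside 7.77% of genes, 2 (ZC3H12A and ZC3H12C) in KD with LPS, beside 8.48%, 1 (ZC3H12A) for LPS in scramble, beside 2.68%, and 2 (ZC3H12A and ZC3H12C) for LPS in KD, beside 2.25%. The members' median log2 fold change was -0.05 for KD without LPS, 0.00 for KD with LPS, 0.05 for LPS in scramble and 0.07 for LPS in KD, beside medians of 0.02, 0.03, 0.02 and 0.01 over all genes tested. KHSRP and TIAL1 were called in none of the 5 comparisons, and 8 members in at least 1. For KD with LPS, and for the lower and 2-fold calls of KD without LPS, the counts of members were near the shares of all genes. Those shares include genes with as few as 10 counts in total, whereas every member had at least 654 counts in each library. Shares among genes with counts as high as the members' were not computed. The comparisons share groups, so their calls are not independent of each other.

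**Figure D1:**
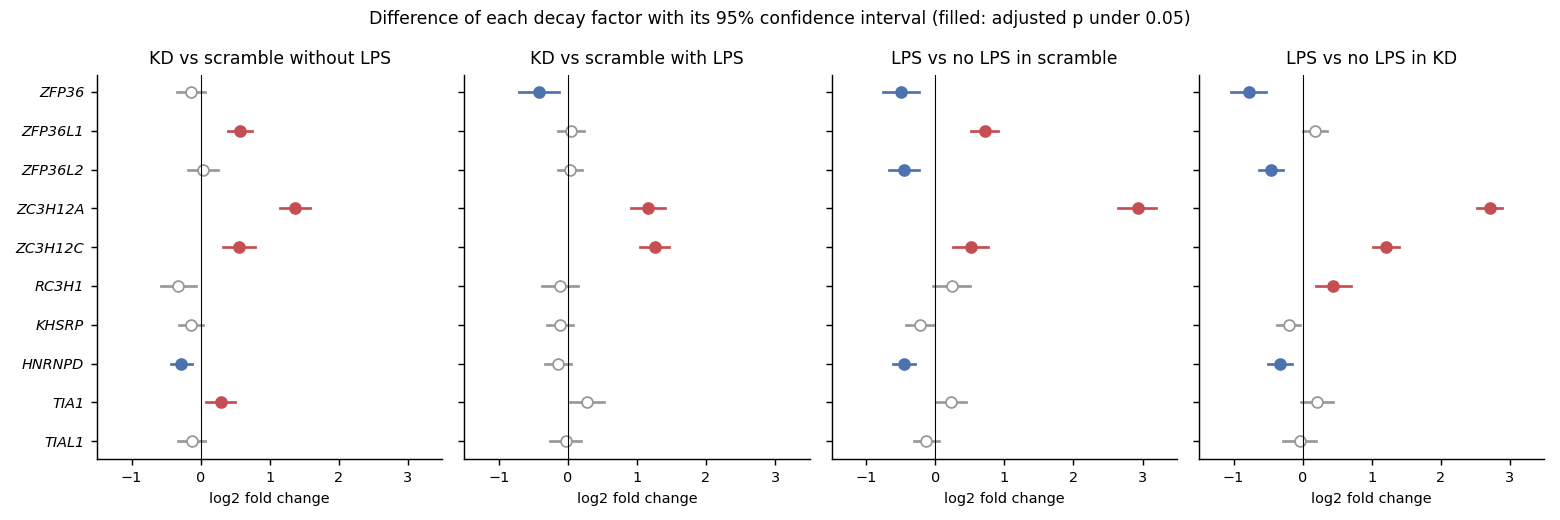
The log2 fold change of each of the 10 genes (x axis) with its 95% confidence interval in the 4 pairwise comparisons of 3 against 3 libraries, with filled red points for genes called higher, filled blue points for genes called lower and open grey points for genes not called. ZC3H12A lies furthest to the right in 3 of the 4 panels, with 2.93 for LPS in scramble, and ZC3H12C exceeds it only in KD against scramble with LPS (1.26 against 1.16).

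Levels of different genes were compared per length, as CPM per kb of the canonical mRNA. The order rests on that 1 length for each gene, and which isoforms were expressed was not checked. By CPM alone, RC3H1 averaged 29.1 in scramble, above ZC3H12C (26.6), TIA1 (22.7) and ZC3H12A (13.7). In scramble control the order was ZFP36L2 (85.5 ± 11.9 CPM per kb, SD, n = 3), HNRNPD (61.2 ± 1.67), KHSRP (55.7 ± 3.80), ZFP36L1 (39.3 ± 1.64), ZFP36 (34.3 ± 2.54), TIAL1 (17.0 ± 0.383), ZC3H12A (5.15 ± 0.316), TIA1 (4.89 ± 0.298), ZC3H12C (3.03 ± 0.399) and RC3H1 (2.54 ± 0.238). The neighbours ZC3H12A and TIA1, and likewise ZC3H12C and RC3H1, overlapped in their ranges over libraries, and the other neighbours did not. In scramble with LPS, ZFP36L1 (64.3 ± 7.49) and ZFP36L2 (61.9 ± 2.90) stood first with overlapping ranges, KHSRP (47.6 ± 4.94), HNRNPD (44.3 ± 2.78) and ZC3H12A (38.8 ± 6.76) followed with overlapping ranges, and ZC3H12A had passed ZFP36 (24.3 ± 4.12). In KD without LPS, ZFP36L1 (58.4 ± 4.83) was second to ZFP36L2 (87.4 ± 4.66) and ZC3H12A (13.3 ± 0.523) was seventh. In KD with LPS, ZC3H12A (86.5 ± 5.87) stood first, above ZFP36L1 (66.3 ± 1.85) and ZFP36L2 (63.4 ± 5.53), which overlapped each other, and RC3H1 (2.76 ± 0.161) stood last as in every group. The level per kb of ZC3H12A divided by that of ZFP36 was 0.147 to 0.152 in the scramble libraries, 0.379 to 0.477 in KD, 1.47 to 1.68 in scramble with LPS and 4.24 to 5.98 in KD with LPS. This ratio did not overlap between any of the 4 groups.

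**Figure D2:**
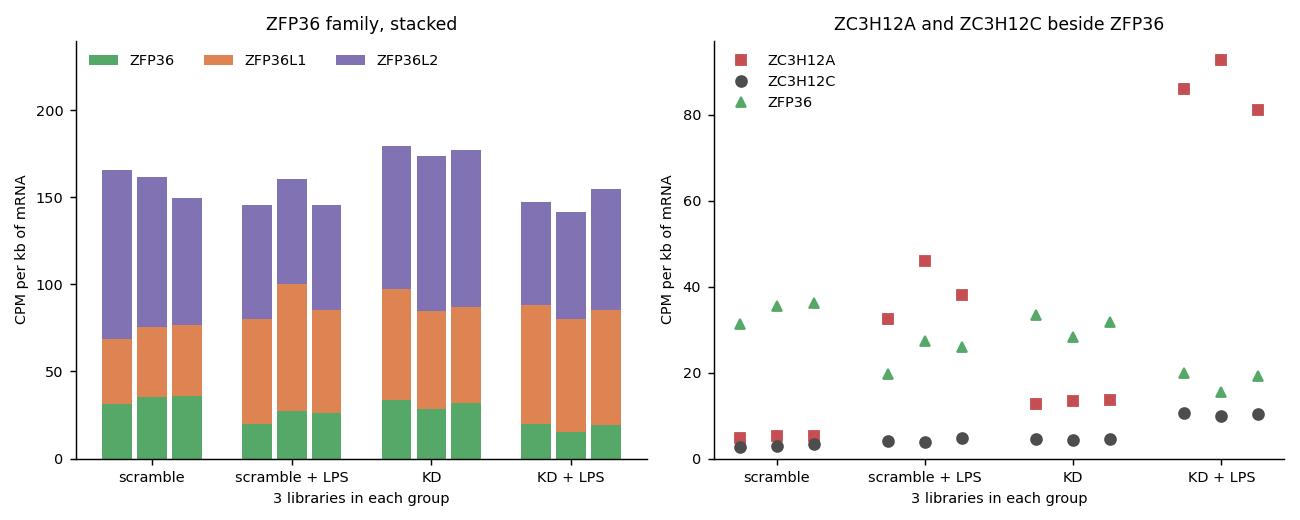
CPM per kb of mRNA (y axis) in each of the 12 libraries, stacked for ZFP36, ZFP36L1 and ZFP36L2 on the left and as points for ZC3H12A, ZC3H12C and ZFP36 on the right. The stacks sum to between 142 and 179 CPM per kb, while ZC3H12A goes from under ZFP36 in the libraries without LPS to above it in all 6 libraries with LPS.

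Of the ZFP36 family, ZFP36 itself was lower after LPS under both shRNAs, and with LPS it was lower in KD than in scramble control. ZFP36 lies on chromosome 19 of GRCh38 between 39406847 and 39409412. Its mRNA was at 54.9, 61.9 and 63.1 CPM in scramble replicates 1 to 3, 34.2, 47.7 and 45.3 CPM in scramble with LPS, 58.4, 49.5 and 55.5 CPM in KD, and 34.7, 27.1 and 33.4 CPM in KD with LPS. Every library with LPS lay below every library without LPS. Scramble and KD overlapped without LPS and, by scramble + LPS replicate 1 at 34.2 CPM against KD + LPS replicate 1 at 34.7 CPM, also with LPS. The LPS response was a log2 fold change of -0.49 in scramble (SE 0.119, adjusted p = 0.017) and -0.78 in KD (SE 0.115, adjusted p = 3.5e-04), that is 0.713 and 0.583 times the level without LPS. These responses differed by -0.28 on the log2 scale, with an interval of -0.64 to 0.08 (interaction adjusted p = 0.60). KD changed ZFP36 by a log2 fold change of -0.14 without LPS (95% interval -0.34 to 0.06, adjusted p = 0.31) and lowered it to 0.747 times with LPS (log2 fold change -0.42, SE 0.136, adjusted p = 0.035). The call with LPS was lost without scramble + LPS replicate 2 (adjusted p = 0.12) or 3 (0.13), without KD + LPS replicate 2 (0.13) or 3 (0.051), and with scaling by library size alone (0.086). In scramble, the LPS call of ZFP36 was lost without scramble replicate 2 (adjusted p = 0.075) or 3 (0.062).

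ZFP36L1, on chromosome 14 between 68787660 and 68796253 on the minus strand, was higher in KD without LPS and in scramble after LPS, and was not called in the other 2 pairwise comparisons. It was at 113, 121 and 122 CPM in scramble, 183, 220 and 179 CPM in scramble with LPS, 193, 170 and 166 CPM in KD, and 206, 195 and 199 CPM in KD with LPS. The 3 scramble libraries without LPS lay below the other 9, and scramble with LPS overlapped both KD groups. KD raised ZFP36L1 1.49-fold without LPS (log2 fold change 0.57, SE 0.0822, adjusted p = 2.8e-04), and with LPS the log2 fold change was 0.04 (95% interval -0.14 to 0.23, adjusted p = 0.77). LPS raised it 1.65-fold in scramble (log2 fold change 0.72, SE 0.0892, adjusted p = 2.3e-04), and in KD the value was 0.18 (95% interval 0.01 to 0.35, adjusted p = 0.19). The LPS response was smaller in KD than in scramble by 0.53 on the log2 scale (interaction -0.53, SE 0.120, adjusted p = 0.038). That interaction was lost, with adjusted p = 0.052 to 0.12, without scramble replicate 1 or 2, scramble + LPS replicate 2, KD replicate 1 or any 1 of the KD + LPS replicates 1, 2 and 3.

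ZFP36L2, on chromosome 2 between 43222402 and 43226606 on the minus strand, was the most abundant of the family per kb in both groups without LPS and fell after LPS under both shRNAs. It was at 358, 319 and 270 CPM in scramble, 241, 222 and 223 CPM in scramble with LPS, 303, 330 and 335 CPM in KD, and 218, 227 and 257 CPM in KD with LPS. All 6 libraries with LPS lay below all 6 without, and the shRNAs overlapped at each state. LPS lowered it to 0.732 times in scramble (log2 fold change -0.45, SE 0.0988, adjusted p = 0.010) and 0.726 times in KD (log2 fold change -0.46, SE 0.0794, adjusted p = 0.0012). The KD difference was 0.04 without LPS (95% interval -0.18 to 0.25) and 0.03 with LPS (95% interval -0.14 to 0.21). The call in scramble was lost without scramble + LPS replicate 3 (adjusted p = 0.051).

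The makeup of the family moved more than its sum. Summed per kb, the 3 genes stood at 150 to 166 CPM per kb in the scramble libraries, 145 to 160 in scramble with LPS, 174 to 179 in KD and 142 to 155 in KD with LPS. The KD libraries without LPS lay above the other 9, and the other groups overlapped. Of this sum, ZFP36L1 took 22.6% to 27.0% in scramble, 40.7% to 45.5% in scramble with LPS, 31.0% to 35.6% in KD and 42.6% to 46.4% in KD with LPS. ZFP36 took 19.0% to 24.1%, 13.5% to 17.8%, 16.3% to 18.6% and 11% to 13.5% in the same order. The share of ZFP36L1 thus lay higher in every library with LPS than in any without, and that of ZFP36 was at most 13.5% in KD with LPS and at least 13.5% in every other library. Shares sum to the whole, so these moves are not separate from one another.

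**Figure D3:**
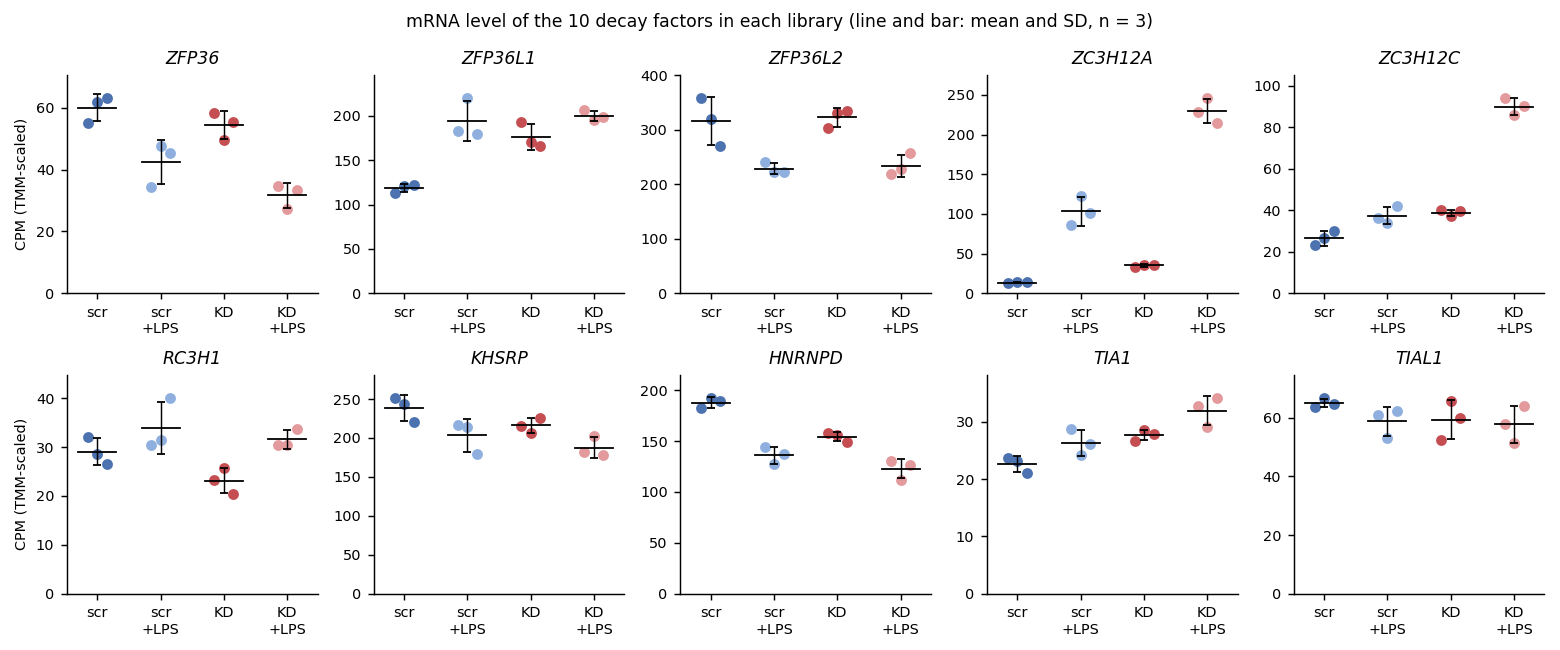
CPM (y axis, from 0) of each of the 10 genes in the 3 libraries of scramble (scr), scramble with LPS, linc-ADAIN KD and KD with LPS, with points for libraries, a line for the mean and a bar for the SD. ZC3H12A spans 12.7 to 246 CPM and separates all 4 groups, whereas TIAL1 spans 51.2 to 66.6 CPM with overlapping KD and scramble groups.

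ZC3H12A and ZC3H12C, the 2 Regnase genes among the members, were higher in KD at both states and higher after LPS under both shRNAs. ZC3H12A, on chromosome 1 between 37474580 and 37484377, was at 12.7, 14.2 and 14.1 CPM in scramble, 86.3, 122 and 101 CPM in scramble with LPS, 33.6, 35.9 and 36.1 CPM in KD, and 228, 246 and 215 CPM in KD with LPS. The 4 groups did not overlap and rose in the order scramble, KD, scramble with LPS, KD with LPS. LPS raised ZC3H12A 7.6-fold in scramble (log2 fold change 2.93, SE 0.124, adjusted p = 1.2e-07) and 6.52-fold in KD (2.71, SE 0.0835, adjusted p = 3.1e-11). KD raised it 2.59-fold without LPS (1.37, SE 0.0997, adjusted p = 1.3e-06) and 2.23-fold with LPS (1.16, SE 0.111, adjusted p = 3.6e-06). The responses to LPS under the 2 shRNAs differed by -0.21 on the log2 scale (95% interval -0.52 to 0.10, interaction adjusted p = 0.66). No alternative changed the direction or the call of these 4 differences.

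ZC3H12C, on chromosome 11 between 110093392 and 110171841, moved in the same directions, and its LPS response was larger in KD than in scramble. It was at 23.1, 26.5 and 30.1 CPM in scramble, 36.4, 34.0 and 42.2 CPM in scramble with LPS, 40.0, 37.3 and 39.5 CPM in KD, and 94.2, 85.9 and 90.1 CPM in KD with LPS. Scramble lay lowest and KD with LPS highest, and the groups between them, scramble with LPS and KD without, overlapped. KD raised it 1.47-fold without LPS (log2 fold change 0.55, SE 0.107, adjusted p = 0.0023) and 2.4-fold with LPS (1.26, SE 0.0990, adjusted p = 5.1e-07). LPS raised it 1.43-fold in scramble (0.51, SE 0.118, adjusted p = 0.014) and 2.31-fold in KD (1.21, SE 0.0871, adjusted p = 2.6e-07). The difference between those responses was 0.71 on the log2 scale (SE 0.145, interaction adjusted p = 0.020). It was lost without scramble replicate 2 (adjusted p = 0.056), KD + LPS replicate 1 (0.058) or KD + LPS replicate 3 (0.051), and the LPS call in scramble was lost without scramble replicate 2 (adjusted p = 0.054) or scramble + LPS replicate 3 (0.070).

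**Figure D4:**
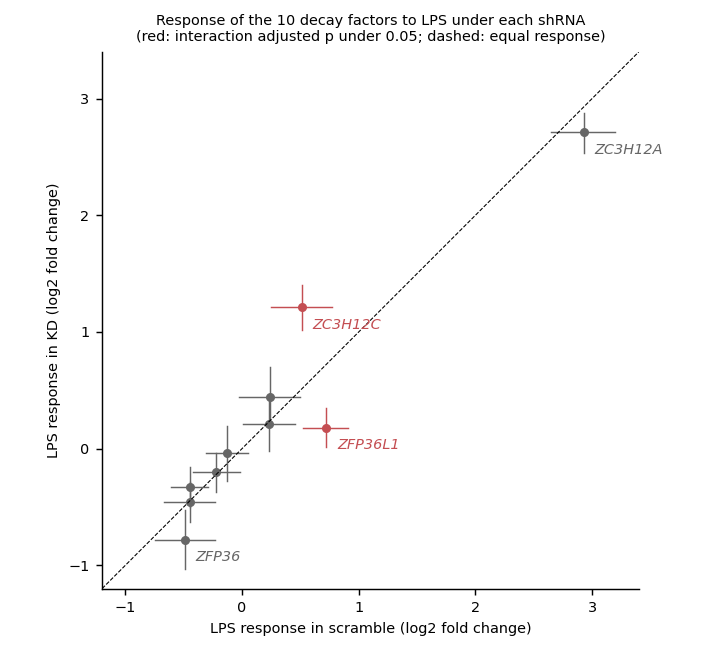
The LPS response of each of the 10 genes in scramble (x axis) and in KD (y axis), as log2 fold changes with 95% confidence intervals, with the dashed line where both are equal. ZC3H12C (0.51 and 1.21) lies above the line and ZFP36L1 (0.72 and 0.18) below it, in red because the interaction was called, and the other 8 genes are drawn in grey.

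RC3H1, on chromosome 1 between 173931084 and 174022357 on the minus strand, was the least abundant member per kb. It was at 32.0, 28.6 and 26.6 CPM in scramble, 30.4, 31.4 and 40.0 CPM in scramble with LPS, 23.2, 25.8 and 20.5 CPM in KD, and 30.5, 30.5 and 33.7 CPM in KD with LPS. The 3 KD libraries without LPS were the lowest of the 12. LPS raised it 1.36-fold in KD (log2 fold change 0.44, SE 0.118, adjusted p = 0.024), a call that was lost without KD replicate 1 (adjusted p = 0.073), KD replicate 3 (0.099) or KD + LPS replicate 3 (0.10). In scramble the LPS value was 0.24 (95% interval -0.03 to 0.50, adjusted p = 0.23), and the interaction was not called. The KD difference without LPS was -0.32 (95% interval -0.57 to -0.07, adjusted p = 0.057), and it was called without KD replicate 2 (adjusted p = 0.030) or with no filter on low counts (0.042). With LPS the KD difference was -0.11 (95% interval -0.37 to 0.15).

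HNRNPD, on chromosome 4 between 82352498 and 82374503 on the minus strand, fell after LPS and was lower in KD without LPS. It was at 182, 192 and 189 CPM in scramble, 144, 127 and 137 CPM in scramble with LPS, 158, 156 and 149 CPM in KD, and 130, 112 and 126 CPM in KD with LPS. Scramble without LPS lay above all other libraries, KD without LPS came next, and the 2 groups with LPS overlapped. LPS lowered it to 0.732 times in scramble (log2 fold change -0.45, SE 0.0747, adjusted p = 0.0018) and to 0.796 times in KD (-0.33, SE 0.0808, adjusted p = 0.015), the latter lost without KD replicate 1 (adjusted p = 0.052) or KD + LPS replicate 2 (0.071). KD lowered it to 0.825 times without LPS (-0.28, SE 0.0706, adjusted p = 0.012), a call lost without scramble replicate 2 (adjusted p = 0.061) and with scaling by library size alone (0.098). That scaling moved every member by 0.10 to 0.11 upward in this comparison and by at most 0.08 in the others. With LPS the KD difference was -0.15 (95% interval -0.33 to 0.04).

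KHSRP, on chromosome 19 between 6413102 and 6424811 on the minus strand, had small differences that were not called in any comparison. It was at 251, 244 and 220 CPM in scramble, 217, 214 and 179 CPM in scramble with LPS, 216, 207 and 226 CPM in KD, and 182, 203 and 178 CPM in KD with LPS. The libraries with LPS lay below those without under each shRNA, and the shRNAs overlapped. Its LPS log2 fold change was -0.22 in scramble (95% interval -0.42 to -0.02, adjusted p = 0.15, but 0.031 with the replicate number as a block). In KD it was -0.20 (95% interval -0.37 to -0.04, adjusted p = 0.11, but 0.043 by DESeq2). Its KD difference was -0.14 (95% interval -0.31 to 0.03) without LPS and -0.12 (95% interval -0.31 to 0.08) with LPS.

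Of the pair TIA1 and TIAL1, TIA1 was called in KD without LPS. TIA1, on chromosome 2 between 70209444 and 70248660 on the minus strand, was at 23.7, 23.2 and 21.1 CPM in scramble, 28.7, 24.2 and 26.2 CPM in scramble with LPS, 26.7, 28.5 and 27.8 CPM in KD, and 32.7, 29.1 and 34.1 CPM in KD with LPS. Scramble without LPS lay lowest, KD with LPS lay highest, and the remaining 2 groups overlapped. KD raised it 1.22-fold without LPS (log2 fold change 0.29, SE 0.0961, adjusted p = 0.042). The call was lost when any 1 of the scramble replicates 1, 2 and 3 or KD replicates 1, 2 and 3 was left out (adjusted p = 0.064 to 0.16). It was also lost with no filter on low counts (0.054) and with the replicate number as a block (0.090). With LPS the difference was 0.27 (95% interval 0.03 to 0.52, adjusted p = 0.090). That difference was called with scaling by library size alone (0.358, adjusted p = 0.026) and with the block (0.277, adjusted p = 0.049). The LPS values were 0.23 in scramble (adjusted p = 0.17) and 0.21 in KD (adjusted p = 0.28). TIAL1, on chromosome 10 between 119571802 and 119597029 on the minus strand, was at 63.7, 66.6 and 64.8 CPM in scramble, 61.0, 53.2 and 62.2 CPM in scramble with LPS, 52.5, 65.6 and 60.0 CPM in KD, and 57.9, 51.2 and 63.9 CPM in KD with LPS. Its log2 fold changes lay between -0.13 and -0.03, with the widest 95% interval from -0.28 to 0.19, for LPS in KD.

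The counts of called genes in the lists below stand beside shares over all genes tested of 12.1% higher and 15.1% lower in KD without LPS, 12.7% and 14.2% in KD with LPS, 5.9% and 8.38% after LPS in scramble, and 5.32% and 6.03% after LPS in KD. Of 20 CCR4-NOT and other deadenylation factors, 3 were higher and 4 lower in KD without LPS, 2 were higher and 3 lower in KD with LPS, 3 were higher after LPS in scramble, and 1 was higher after LPS in KD. BTG1, which binds the CCR4-NOT deadenylases, rose after LPS under both shRNAs by the same log2 fold change of 1.02 (SE 0.105 in scramble and 0.0892 in KD, adjusted p = 5.8e-05 and 2.3e-06). TOB1, a related adaptor, rose after LPS in scramble (0.87, SE 0.121, adjusted p = 5.3e-04), and so did NOCT, a member of the deadenylase family, (1.08, SE 0.166, adjusted p = 0.0010). NOCT was lower in KD with LPS (-1.24, SE 0.211, adjusted p = 5.9e-04). Of 13 decapping and 5′ decay factors, at most 2 were called in either direction in a comparison. Among them the decapping enzyme DCP2 was higher in KD without LPS (0.68, SE 0.165, adjusted p = 0.0093) and after LPS in scramble (0.85, SE 0.153, adjusted p = 0.0031), and the 5′ exonuclease XRN1 rose after LPS in scramble (0.33, SE 0.0990, adjusted p = 0.045) and in KD (0.51, SE 0.125, adjusted p = 0.014). Of 15 exosome and Ski complex genes, 2 were lower in each of the 4 pairwise comparisons, and EXOSC5 was higher in KD without LPS (0.49, SE 0.137, adjusted p = 0.019). The median log2 fold changes of these 3 lists lay between -0.12 and 0.08.

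The regulators around the members were called in both directions. In the list of 12 genes of the p38-MK2 arm, 3 were lower in KD without LPS, 5 after LPS in scramble and 2 after LPS in KD, and 2 were higher in KD with LPS (MAPK14, the p38α kinase, and the phosphatase DUSP10). MAP2K3, a kinase that activates p38, was lower in KD without LPS (log2 fold change -0.88, SE 0.0934, adjusted p = 2.6e-05) and fell after LPS by 1.01 in scramble and by 0.28 in KD. The responses of MAP2K3 differed by 0.75 (SE 0.134, interaction adjusted p = 0.0078). Of 18 paralogs and other AU-rich element binding proteins, 1 was higher and 7 were lower in KD without LPS, 1 and 5 in KD with LPS, 1 and 7 after LPS in scramble, and 2 were lower after LPS in KD. FUBP1, a relative of KHSRP, was called lower in KD without LPS (-0.92, SE 0.0807, adjusted p = 6.0e-06) and with LPS (-0.78, SE 0.0793, adjusted p = 6.5e-06), after LPS in scramble (-0.64, adjusted p = 1.3e-04) and in KD (-0.51, adjusted p = 8.7e-04). N4BP1, a further RNase, was lower in KD without LPS (-0.58, adjusted p = 4.0e-04) and with LPS (-0.70, adjusted p = 1.5e-04). ARID5A, which binds the IL6 3′UTR and opposes ZC3H12A there, fell after LPS in scramble (-0.95, SE 0.149, adjusted p = 0.0012). ZC3H12D, the Regnase family member with the fewest counts among those named (21 to 118 per library), was higher after LPS in scramble (1.43, SE 0.316, adjusted p = 0.011) and lower in KD with LPS (-1.40, SE 0.390, adjusted p = 0.016). ELAVL1 (HuR), a stabilizer that competes for AU-rich elements, was at 77.3 ± 3.47 CPM in scramble, 62.6 ± 2.87 CPM in scramble with LPS, 65.6 ± 1.32 CPM in KD and 59.1 ± 2.62 CPM in KD with LPS (SD, n = 3 each). It was called lower in KD without LPS (-0.23, adjusted p = 0.037) and after LPS in scramble (-0.29, adjusted p = 0.026). IGF2BP2, a reader of modified mRNA that stabilizes its targets, was called lower in KD without LPS (-0.58, adjusted p = 1.3e-04), in KD with LPS (-0.40, adjusted p = 0.0011) and after LPS in scramble (-0.37, adjusted p = 0.0054). These are mRNA values, and the paper reports that KD left the protein of both HuR and IGF2BP2 unchanged in mature adipocytes. It does report a change in binding by RNA immunoprecipitation. With KD, CXCL8 and KLF5 mRNA were bound less by HuR and more by IGF2BP2.

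**Figure D5:**
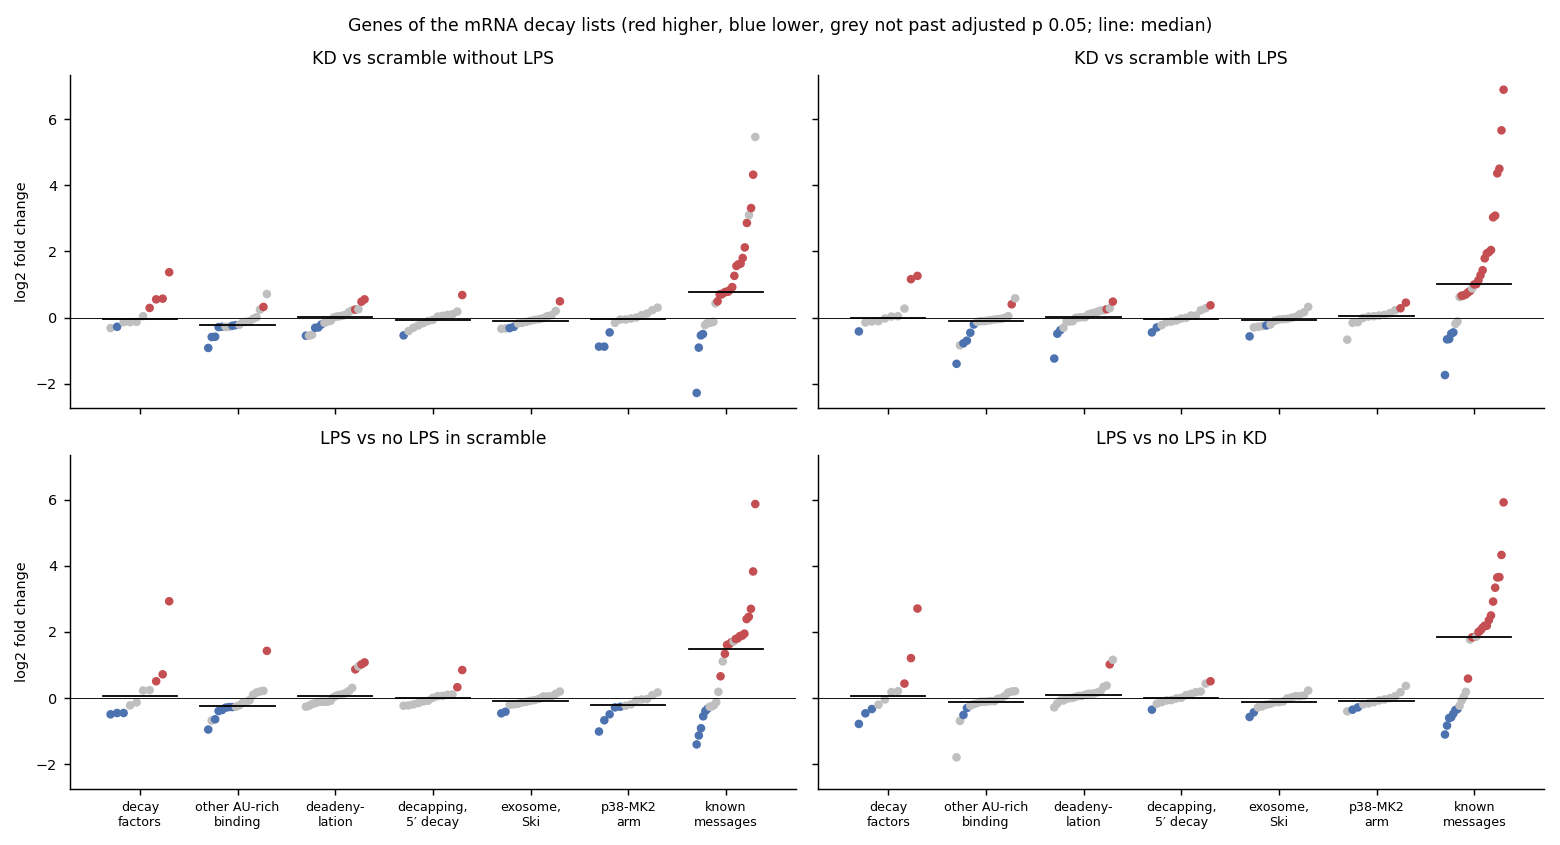
The log2 fold change (y axis) of every tested gene of 7 lists in the 4 pairwise comparisons, sorted within a list, with red for called higher, blue for called lower, grey for not called and a line at the list's median. The 5 lists of regulators and decay machinery have medians from -0.24 to 0.08, with single genes past 1 in either direction such as BTG1 (1.02 after LPS) and NOCT (-1.24 in KD with LPS), and the known messages have medians from 0.78 to 1.85.

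Among mRNAs that the members are known to bind or cut, more were called higher than lower in each pairwise comparison. The list was written with earlier results of these data known, so it is not independent evidence of a direction. Of 29 such messages, 26 held the heptamer TATTTAT in the 3′UTR and 14 the nonamer, beside 34.9% and 9.25% of all 15489 genes. The list was made of messages that the members act on, so these motif counts only describe it. In KD without LPS 17 of 29 were higher and 4 lower, with a median log2 fold change of 0.78, and in KD with LPS 20 of 29 were higher and 5 lower, with a median of 1.00. After LPS 15 of 28 tested were higher and 6 lower in scramble, with a median of 1.48, and 16 of 29 were higher and 7 lower in KD, with a median of 1.85. These medians did not change with CSF2, at or under 3 counts in every scramble library, set to its bound of 3 counts per library. The medians over all genes tested were 0.01 to 0.03. IL6 was at 52.5 ± 5.23 CPM in scramble, 132 ± 11.6 CPM in scramble with LPS, 89.7 ± 7.44 CPM in KD and 508 ± 27.1 CPM in KD with LPS (SD, n = 3 each). The LPS response of IL6 was larger in KD by 1.17 on the log2 scale (SE 0.128, interaction adjusted p = 1.4e-04), and CCL2 (1.15, adjusted p = 0.016), PTGS2 (0.96, adjusted p = 0.034) and IER3 were the other messages called for the interaction. CXCL8, a neutrophil chemokine, was at 141 ± 15.8 CPM in scramble, 452 ± 35.4 CPM in scramble with LPS, 434 ± 5.92 CPM in KD and 1570 ± 156 CPM in KD with LPS (SD, n = 3 each), and its LPS responses of 1.69 in scramble and 1.85 in KD differed by 0.17 (SE 0.126, interaction adjusted p = 0.69). ICAM1, an adhesion molecule, rose after LPS in scramble by 2.70 (SE 0.152, adjusted p = 6.1e-07). PLAU, the urokinase gene with 2 heptamers, was lower in KD without LPS (-2.28, SE 0.0997, adjusted p = 6.4e-08), so members of the list went both ways. Steady-state counts do not separate synthesis from decay, and mRNA half-lives were not measured in these libraries. The paper followed mRNA decay by qPCR after actinomycin-D in day 14 adipocytes with the same shRNAs. It reports that KD delayed the decay of CXCL8 mRNA, modestly delayed that of MYC and did not affect that of IL6 or CCL2.

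Across the 12 libraries, the genes whose mean-centred log2 CPM lay closest to that of ZFP36, out of 11810 genes averaging 50 counts or more, were JADE1, SH2D4A, PFAS, ABCF2 and PDE4A, with root mean square differences of 0.12 to 0.14. For ZC3H12A they were ICAM1 (0.20), TNFAIP8 (0.24), CXCL6 (0.37), ELOVL7 (0.41) and TNIP3 (0.42). The 12 libraries share 4 groups, so that likeness here rests mainly on the group means.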

How the data were processed

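Polyadenylated RNA was sequenced in 12 stranded libraries. Per the labels, bcl2fastq 2.19 made the reads and kallisto 0.44.0 with a GRCh38 index gave the estimated counts, which the authors deposited per gene name without normalization, as whole numbers. The annotation release and strand setting are not given in the sources used here. A row without a gene name, 0.235% to 0.306% of counts, was left out. In R 4.3.3, edgeR 4.0.16 scaled libraries by TMM and fitted its quasi-likelihood model to rounded counts of genes with at least 10 in total, each comparison on its 6 libraries and the interaction on all 12. P-values were adjusted by Benjamini-Hochberg over all genes tested. The SE is the log2 fold change divided by the square root of F. The study used DESeq2, here an alternative (1.42.0) beside other scalings, filters, all libraries in 1 fit, a replicate block and each library left out. These alternatives were read for the members only, so calls of other genes were not checked in this way. All members are named in every comparison, and of each other list up to 3 called genes per comparison with a mean of at least 50 counts and the largest change, and any of ELAVL1, IGF2BP2, IL6, CXCL8, CCL2 and KLF5 may be named in any comparison; IER3 and CSF2 were named after their values were seen. The members and lists were chosen with earlier results of these data known. Lengths, positions and 3′UTRs come from GENCODE release 44, and promoters from RefSeq, both on GRCh38. With 3 libraries against 3, an exact permutation test cannot go below 0.1, so no such test was run on single genes.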

Additional observations from a re-analysis of the deposited data

Results flagged for a closer look

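Of the 10 decay factors, 2 had an LPS response that was not the same under the 2 shRNAs, by the interaction test over all 12 libraries. ZC3H12C responded more in KD, with a difference of 0.71 on the log2 scale (SE 0.145, edgeR adjusted p = 0.020), from a response of 0.51 in scramble and 1.21 in KD. ZFP36L1 responded less in KD, with a difference of -0.53 (SE 0.120, edgeR adjusted p = 0.038), from 0.72 in scramble and 0.18 in KD. With each of the 12 libraries left out in turn, the ZC3H12C interaction was lost in 3 fits (adjusted p = 0.051 to 0.058) and that of ZFP36L1 in 7 (0.052 to 0.12). In KD without LPS both genes already stood above scramble control, ZC3H12C by 0.55 and ZFP36L1 by 0.57 on the log2 scale. The adipocyte marker sum was 628 to 1830 CPM in these KD libraries and 3140 to 4350 CPM in scramble, and its part in the 2 differences was not tested.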

How the results depend on the processing

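The number of members called was 5 for KD without LPS, 3 for KD with LPS, 6 for LPS in scramble, 6 for LPS in KD and 2 for the interaction, and 3 to 5, 2 to 3, 4 to 6, 4 to 6 and 0 to 2 with each library left out in turn. In KD without LPS it was 3 without scramble replicate 2. With the replicate number as a replicate block the numbers were 4, 4, 7, 6 and 2: TIA1 was no longer called in KD without LPS (adjusted p = 0.090), while TIA1 in KD with LPS (0.277, adjusted p = 0.049) and KHSRP for LPS in scramble (-0.220, adjusted p = 0.031) were called. Same-numbered libraries of different groups had r of -0.14 to 0.246 between their deviations over 18 pairs, with a median of -0.0005, and the numbers were not taken as pairs. Between the states of 1 shRNA, r was 0.246, 0.073 and 0.055 for scramble replicates 1 to 3. It was 0.109, -0.071 and 0.125 for KD replicates 1 to 3. Whether libraries of 1 shRNA were paired cannot be told from these values. DESeq2, other scalings and other filters gave numbers within 1 of the main ones. Over 700 refits of single members' log2 fold changes, 632 kept their direction and their side of the threshold, 35 lost a call, 6 gained one and 27 changed sign. All sign changes were of values near 0 that were not called. TIAL1 in KD with LPS was 0.052 with library size only and from -0.112 to 0.042 without single libraries. The ZFP36L2 interaction was -0.004 with DESeq2 and RLE scaling, -0.025 with library size only, -0.008 with no filter, -0.007 with filterByExpr and from -0.100 to 0.102 without single libraries. Without single libraries the KHSRP interaction ran from -0.058 to 0.082, the TIA1 interaction from -0.067 to 0.055, RC3H1 in KD with LPS from -0.180 to 0.030, TIAL1 for LPS in KD from -0.130 to 0.040, ZFP36L1 in KD with LPS from -0.010 to 0.140, and ZFP36L2 from -0.041 to 0.079 in KD with LPS and from -0.076 to 0.136 in KD without LPS. The cause was not tested. The lowest count of a member in a library was 654, and the SEs of the members' log2 fold changes in the pairwise comparisons were 0.0706 to 0.136.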

Other observations

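As a description with no test, genes were sorted by the number of nonamers TTATTTATT in their canonical 3′UTR. In KD with LPS, 19.8% of 338 genes with 2 or more nonamers, 18.6% of 1053 genes with 1 and 13.0% of 13305 genes with none were called higher, and 11.2%, 16.7% and 15.1% were called lower. The median log2 fold changes of these classes were 0.05, 0.04 and 0.02. After LPS in scramble the shares called higher were 6.87%, 8.40% and 5.92% and those called lower 11.9%, 10.1% and 8.89%, with medians of 0.01, 0.02 and 0.01. After LPS in KD 5.29%, 8.89% and 5.45% were called higher and 6.76%, 5.87% and 6.54% lower, with medians of -0.02, 0.04 and 0.01. In KD without LPS 17.1%, 15.2% and 12.4% were called higher and 13.0%, 16.7% and 16.3% lower, with medians of 0.07, 0.01 and 0.01. The classes were not matched on 3′UTR length.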
